A study of Mus musculus with 4 samples.

Results

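Described here are 10 genes of transforming growth factor beta (TGF-beta) and bone morphogenetic protein (BMP) signalling in hematopoietic stem and progenitor cells (HSPCs) of young and aged mice. They were taken by symbol from the 28692 genes listed for each library: the ligand Tgfb1, the receptors Tgfbr1, Tgfbr2 and Bmpr1a, the co-receptors Tgfbr3 and Eng, and the Smads Smad2, Smad3, Smad4 and Smad7. All 10 were found, and all 10 passed the filter on low counts used for the comparison of ages, Bmpr1a through its aged pools only. The study captured bone marrow cells sorted as Lin-Sca1+cKit+ Flt3- from male C57BL/6-CD45.2 mice and measured their RNA with droplet 3′ sequencing, in which each captured molecule is counted once by its unique molecular identifier (UMI). Young mice were between 2 and 3 months of age and aged mice between 17 and 18 months, none had been treated or carried an engineered allele, and each library was a pool of 2 or 3 mice of one age, so that single animals could not be compared and females were not measured. There were 2 pools per age, and per the labels and the study's methods the A pools (young A and aged A) were processed at the HalioDX facility and the B pools (young B and aged B) at the TGML facility. The free-text descriptions of young B and aged A name the other age, so the age of every pool was taken from its title.

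TGF-beta and BMP ligands bind pairs of type I and type II serine/threonine kinase receptors at the cell surface, with help from co-receptors that hold or present the ligand. The type I receptor then phosphorylates receptor-regulated Smads, which join Smad4 and enter the nucleus, while Smad7 is made in response and shuts the receptors off. In bone marrow, TGF-beta is known for holding hematopoietic stem cells in quiescence, and BMP4 is known as a signal from the niche to stem cells.

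Promoter sequence was read for 3 members that the results turn on, the receptor whose level differed most between the ages, the ligand, and the co-receptor that varied most clearly among cell clusters. The windows are RefSeq's on build GRCm38.p6 and run from 250 bases before to 50 bases after a start site, and 6 of the 10 members had one. Only bases upstream of the first annotated exon in the window are printed, 5′ to 3′ on the strand of the gene, at chr14:34502688-34502796 on the minus strand for Bmpr1a, chr7:25686752-25687001 on the plus strand for Tgfb1 and chr2:32646345-32646594 on the plus strand for Eng. The Bmpr1a stretch ends where 1 GENCODE transcript starts, and a longer transcript that starts further upstream has it in an intron. Capitals mark GGGCGG, the core of a GC box, on either strand in Bmpr1a and Tgfb1, and GGAAGT, an ETS core, on either strand in Eng.
Bmpr1a: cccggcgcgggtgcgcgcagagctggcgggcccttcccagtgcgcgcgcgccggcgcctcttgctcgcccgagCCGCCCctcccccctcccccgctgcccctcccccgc
Tgfb1: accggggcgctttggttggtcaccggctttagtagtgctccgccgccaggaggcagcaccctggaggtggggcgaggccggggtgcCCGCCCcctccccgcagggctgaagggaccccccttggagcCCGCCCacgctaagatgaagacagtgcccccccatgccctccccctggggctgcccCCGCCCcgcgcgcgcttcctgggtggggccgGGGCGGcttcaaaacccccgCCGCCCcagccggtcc
Eng: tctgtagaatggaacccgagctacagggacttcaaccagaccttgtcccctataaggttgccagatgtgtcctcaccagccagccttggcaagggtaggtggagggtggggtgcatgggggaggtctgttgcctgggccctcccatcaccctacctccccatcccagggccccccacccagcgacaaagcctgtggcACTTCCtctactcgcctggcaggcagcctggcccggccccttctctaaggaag
The whole 300-base window of Bmpr1a held 4 matches to GGGCGG and that of Tgfb1 held 6, whereas the Eng window held none, and 35.7% of all 32851 windows of this length held at least 1. The Bmpr1a and Tgfb1 windows had 48 and 30 CpG dinucleotides against 6 in Eng and a median of 7 over all windows. The Eng window held 1 match to GGAAGT, which 23.8% of all windows held, and 2 matches to CAGAC, a Smad-binding box, which 49.6% held. The Bmpr1a and Tgfb1 windows held no CAGAC on either strand, and no matches to different motifs overlapped in these windows. These matches describe the letters only.

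The 4 libraries held 15566 cell barcodes, of which 14915 cells were kept, with 2244 to 5189 cells and 16399999 to 36446168 UMIs per pool and a median of 5674 to 6719 UMIs per cell. Any pair of pools shared between 10 and 29 barcodes. Stated sequencing depth was about 45000 reads per cell for young A and aged B and about 130000 for young B and aged A. Over the 4 pools it was thus not tied to age or facility. Within each facility, however, the ages differed in depth, in opposite directions at A and B. A contrast of ages at 1 facility, or of facilities at 1 age, thus cannot be told apart from one of depth. Levels are given as counts per 1000000 UMIs of the pool or cluster (CPM). Of the defining markers of other cell types, the endothelial gene Cdh5 had 13 UMIs in young A and at most 1 elsewhere and the stromal gene Lepr at most 1 in any pool, but the endothelial gene Kdr had 117, 22, 141 and 170 UMIs in young A, young B, aged A and aged B and the macrophage gene C1qa 56 to 114. In the same order the 10 endothelial markers summed to 327, 290, 486 and 473 CPM, the 10 plasma cell markers to 278, 287, 1723 and 577, and the 10 B-lineage (pL2) markers, which share Jchain with the plasma list, to 485, 365, 3729 and 1833. All 3 sums were higher in both aged pools. Of the 10 genes, 5, 7 and 5 were higher in the aged pool at each facility. The part of these sums in the results was not tested beyond leaving out plasma-like cells. Single endothelial genes moved in opposite directions. Cldn5, which also leads cluster 0 described below, had 3.92, 3.60, 99.04 and 142.07 CPM in the same order of pools. Emcn had 39.76, 37.5, 33.19 and 20.97 CPM and was lower in the aged pool at each facility. Whether the aged pools held more endothelial cells was not tested. Aged A stood apart in immediate-early genes such as Fos and Egr1, whose 10 listed members summed to 4098 CPM there against 1156 in young A, 411 in young B and 925 in aged B.

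Of the 10 members, 1 differed between ages over whole pools, and it was higher in aged cells. This was Bmpr1a, a type I BMP receptor. edgeR's quasi-likelihood test, with the facility as a block and Benjamini-Hochberg adjustment over the 13555 genes tested, called 2.03% of all genes, 1.6% as higher and 0.428% as lower in aged pools, and DESeq2 called 2.78%. The levels of 3 of the 10 members did not overlap between ages (Bmpr1a, Tgfbr3 and Eng, all higher in aged pools) against a background of 31.8% of all genes, 18.1% with aged higher. At an unadjusted p below 0.05, 3 members passed where 16% of all genes did, and neither share of the members was tested against its background. Their median log2 fold change, aged over young, was 0.22 against 0.01 for all genes tested. In sums over a pool, fewer expressing cells and less RNA per cell could not be told apart.

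The ligand Tgfb1 (chr7:25687002-25705077, plus strand, GRCm38, GENCODE M21) had 264 CPM in young A, 50.4 in young B, 194 in aged A and 142 in aged B. The low value of young B set the picture, and the young pools enclosed both aged ones. Its log2 fold change was 0.47 ± 0.52 (SE, n = 2 pools per age; edgeR adjusted p = 0.755). The difference between aged and young on the log2(CPM + 1) scale was -0.45 at facility A and 1.48 at facility B, so the 2 facilities gave opposite directions, and without young B the fitted log2 fold change was -0.64.

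Among type I receptors, Bmpr1a (chr14:34410734-34503341, minus strand) had 0.247 CPM in young A, 0.183 in young B, 9.19 in aged A and 4.90 in aged B. Both aged pools lay far above both young pools. These levels rested on 9, 3, 191 and 163 UMIs. With young levels this low, Bmpr1a passed the low-count filter through its aged pools, so the sign of its change does not stand apart from the filter. The fitted log2 fold change was 4.95 ± 0.35 (SE, n = 2 pools per age; edgeR adjusted p = 0.0126), and DESeq2 also called it. From the UMIs alone the level at facility A was 37.2 times higher in aged than in young cells (exact 95% interval 19.2 to 82.6, counting error only), and at facility B 26.8 times (9.0 to 131). The 1-pool contrasts pointed one way at both facilities, but this shared direction follows from the filter and adds no support. Leaving out either aged pool, or the facility block, ended the call. The log2 fold change was 4.58 without aged A, 5.14 without aged B and 4.89 without the block. Without the block the edgeR adjusted p was 0.113, and 0 of the 13555 genes tested were called. A fit without an aged pool rests on 1 aged pool and drops the block, and almost no gene of any kind was called there. The lost call was thus not particular to Bmpr1a. Fits without a young pool have the same form and kept the call, and the reason for this difference was not tested. The antisense gene Gm17110, which overlaps its 5′ end, had at most 1 UMI in any pool.

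Tgfbr1, the type I receptor for TGF-beta (chr4:47353222-47414931, plus strand), had 13.7 CPM in young A, 15.4 in young B, 17.4 in aged A and 13.7 in aged B. The ages overlapped and the log2 fold change was 0.04 ± 0.19 (edgeR adjusted p = 0.955). The type II receptor Tgfbr2 (chr9:116084293-116175360, minus strand), which binds the ligand and activates Tgfbr1, had 14.1, 13.7, 14.9 and 9.91 CPM in young A, young B, aged A and aged B. Aged B alone was low, and the log2 fold change was -0.24 ± 0.20 (edgeR adjusted p = 0.655).

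Of the co-receptors, Tgfbr3 (betaglycan, which presents TGF-beta to the type II receptor; chr5:107106570-107289629, minus strand) had 10.5 CPM in young A, 8.41 in young B, 23.2 in aged A and 12.6 in aged B. Both aged pools were above both young pools, with aged A standing highest. The log2 fold change was 0.82 ± 0.20 with an unadjusted p of 0.00922, which did not pass adjustment over all genes (edgeR adjusted p = 0.140). Eng (endoglin, a co-receptor used as a stem cell surface marker; chr2:32646595-32682669, plus strand) had 91.9, 89.9, 135 and 98.8 CPM in young A, young B, aged A and aged B. Aged A again stood highest and aged B lay close to the young pools. Its log2 fold change was 0.29 ± 0.17 (edgeR adjusted p = 0.515). Eng overlaps Fpgs on the opposite strand, and the sources used here do not say whether the counting used strand.

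Both receptor-regulated Smads of the TGF-beta arm kept within the spread of the pools. Smad3 (chr9:63646767-63757994, minus strand) had 13.9 CPM in young A, 10.7 in young B, 16.2 in aged A and 12.2 in aged B. It was higher in the aged pool at each facility, but the ages overlapped, and its log2 fold change was 0.15 ± 0.18 (edgeR adjusted p = 0.763). Smad2, on chromosome 18, had 28.8, 14.3, 27.7 and 10.7 CPM in the same order, separating the facilities more than the ages. Its log2 fold change was -0.28 ± 0.17 (edgeR adjusted p = 0.534). The difference between aged and young on the log2(CPM + 1) scale was -0.05 at facility A and -0.38 at facility B. The fitted sign turned to 0.17 without young A and 0.16 without aged B, where the block could not be kept.

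Smad4, the shared partner of all receptor-regulated Smads, also on chromosome 18, had 17.5 CPM in young A, 11.3 in young B, 24.7 in aged A and 10.6 in aged B. The ages overlapped, and the log2 fold change was 0.15 ± 0.20 (edgeR adjusted p = 0.792). The inhibitory Smad7, on chromosome 18, had 27.5 CPM in young A, 5.55 in young B, 47.6 in aged A and 7.84 in aged B. Both A pools were far above both B pools, and within each facility the aged pool was higher. Its log2 fold change was 0.60 ± 0.17 with an unadjusted p of 0.0170 (edgeR adjusted p = 0.184), and it was -0.91 without aged A, where the block could not be kept.

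**Figure D1:**
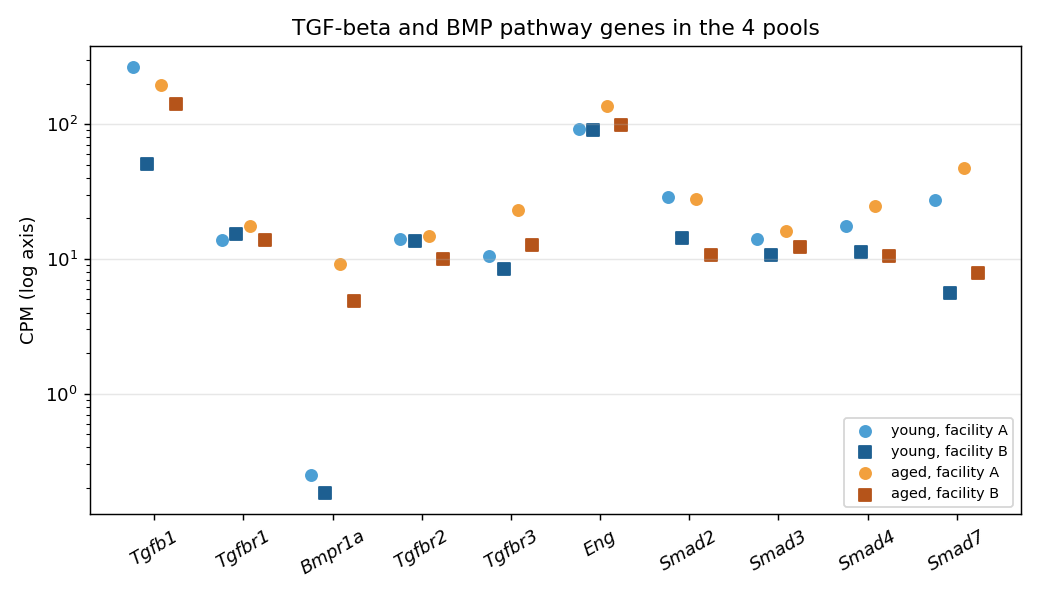
Level of each of the 10 genes in the 4 pools, in CPM of the pool on a log axis. Points are single pools, blue for young and orange for aged, circles for facility A and squares for facility B. Bmpr1a is the gene whose aged points (9.19 and 4.90) sit far above its young points (0.247 and 0.183), and for Smad7 the circles and squares separate more than the colours.

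The facility was a larger source of difference than age for several members. On the log2(CPM + 1) scale, facility A exceeded facility B for Smad7 by 2.12 in young and 2.46 in aged pools. Smad7 was the 1 of 10 members past 1 log2 unit in the same direction in both ages, where 7.89% of all genes were. For Tgfb1 the facility difference was 2.37 in young pools but 0.44 in aged pools. For Smad2 it was 0.96 and 1.29, and for Bmpr1a 0.08 and 0.79. With 1 pool per facility and age, whether such differences come from mice or from library preparation cannot be told apart.

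The share of cells with a UMI followed the levels. After each cell was thinned to 3000 UMIs, leaving out 0 cells of young A, 50 of young B, 176 of aged A and 4 of aged B that had fewer, Bmpr1a was found in 0.0771% of young A, 0.0456% of young B, 2.70% of aged A and 1.54% of aged B cells. Without thinning the shares were 0.173%, 0.134%, 5.59% and 3.78%, or 9, 3, 186 and 157 cells, and no cell held more than 2 Bmpr1a UMIs. As a cell type low in the gene, chosen after its values were seen, the erythroid-primed cluster described next held no Bmpr1a UMI in its 466 cells (median 7099 UMIs). Only 167 of these were aged, and a count of 0 in them allows an unthinned share of up to 1.80% by a floor of 3 counts, below the unthinned shares of both aged pools. Eng was found in 25.1%, 23.6%, 32.5% and 25.5% of thinned cells of young A, young B, aged A and aged B, and Tgfb1 in 45.9%, 11.8%, 40.5% and 33.1%. The young B share of Tgfb1 was thus low at equal UMIs per cell too, although reads per cell still differed between pools. Few members were seen in any 1 cell: the median number of the 10 genes found per thinned cell was 1 in young A, aged A and aged B and 0 in young B.

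Cells were grouped into 14 clusters after integration of the pools with the pathway genes left out of the features used, and a cluster was given a name ending in -like where at least 3 markers of a list were raised in it. Erythroid- (pEr), megakaryocyte- (pMk), neutrophil- (pNeu), mast cell- (pMast) and lymphoid-primed (pL1) clusters, together the primed cells, replicating (rep) and dividing (div) clusters, an interferon-response (ifn) cluster, an immediate-early cluster and a small plasma cell cluster (37 cells, 20 of them in aged A and 11 in aged B) were named in this way. Clusters 0, 1, 4 and 5 stayed unnamed: cluster 0 was led by Cldn5, Ramp2 and Sbspon, cluster 1 by Flt3, cluster 4 by Plk2 and cluster 5 by Spry2. The immediate-early-like cluster held 10.3% of young A, 7.75% of young B, 25.2% of aged A and 17.3% of aged B cells. Its share moved with age, so its levels bear on the pool values above. In 9 clusters every pool had at least 50 cells, and levels are described in those unless said otherwise.

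Within clusters, Bmpr1a could be tested in 4, and it was higher in aged cells in each. It passed the low-count filter there through the aged pools, with 14 to 52 UMIs per aged pool against 0 to 2 per young pool. The shared direction in those 4 clusters thus follows from the filter and adds no support. Over 12 clusters with at least 10 cells in every pool, 88 tests of a member were made and 3 were called, all of them Bmpr1a. In cluster 0 it had 0.208 CPM in young A, 0.419 in young B, 10.9 in aged A and 5.59 in aged B (log2 fold change 4.81 ± 0.67, edgeR adjusted p = 0.0144, where 1.75% of genes were called). The aged pools stood apart from the young ones there as in the whole pools. In cluster 1 the levels were 0.164, 0, 12.8 and 5.07 CPM (6.12 ± 0.74, edgeR adjusted p = 0.0385, 0.64% called). In the rep-like cluster they were 0.146, 0.283, 8.02 and 3.58 CPM (4.69 ± 0.79, edgeR adjusted p = 0.00492, 2.07% called). The immediate-early-like cluster showed the same order of pools, with 0.537, 0, 8.48 and 5.95 CPM, but was not called (4.14 ± 0.69, edgeR adjusted p = 0.0976, 0.489% called). edgeR called 1.02% of genes in cluster 4, 2.22% in cluster 5, 0.422% in div-like, 0.0459% in ifn-like, 0.0462% in pEr-like, 0.0279% in pMk-like and 0% in pMast-like and pNeu-like cells, with no member among them. Leaving out aged A or aged B ended all 3 member calls (6 and 9 tests then had an unadjusted p below 0.05), while 1 call, in cluster 1, was made without young A and 2, in clusters 0 and 1, without young B.

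Bmpr1a UMIs were found in aged cells of all but 2 of the 14 clusters. Cluster 5 had the highest mean of the 9 larger clusters, with 0.863 CPM in young A, 0 in young B, 16.8 in aged A and 7.10 in aged B. These rested on 2, 0, 28 and 8 UMIs. The pNeu-like and div-like clusters had none in either young pool and 2.56 to 5.34 CPM in the aged pools, on 2 to 11 UMIs per aged pool. The pEr-like and plasma-like clusters held no Bmpr1a UMI in any pool. Among pMk-like cells 1.70 CPM in aged B, on 2 UMIs, was the only value above 0. Between neighbours in this order the ranges over pools overlapped throughout, because each spans the young and aged levels.

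**Figure D2:**
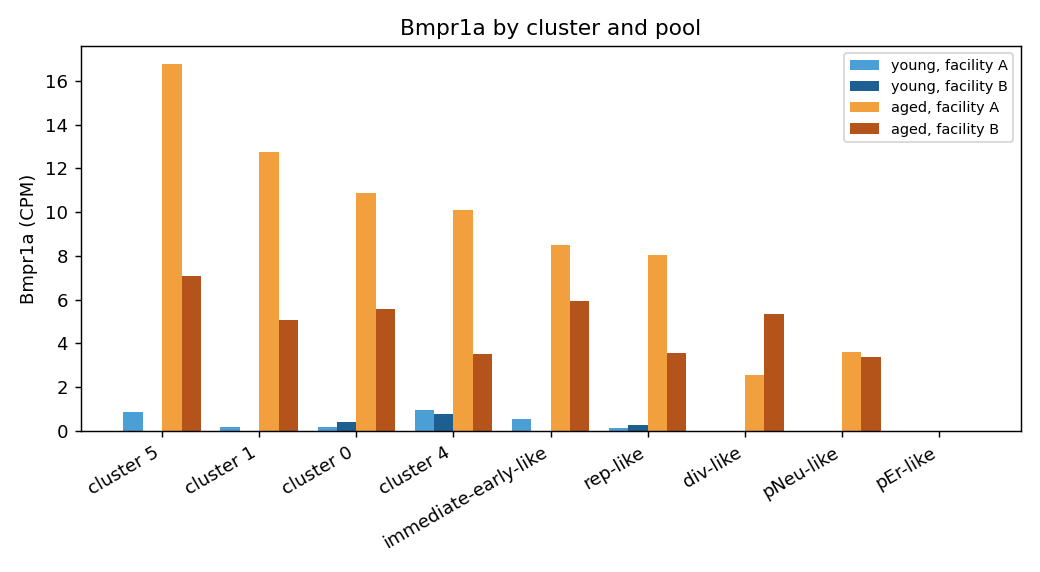
Bmpr1a level (CPM) in the 9 clusters with at least 50 cells in every pool, 1 bar per pool, ordered by the mean over pools. Aged bars exceed young bars in 8 clusters, from 16.8 in aged A cells of cluster 5 downwards, and the pEr-like cluster has none.

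The other members gave no call within a cluster, and their directions are descriptions. Tgfbr3 was higher in aged cells by the fitted value in 9 of 9 clusters tested, and in both facilities in 8 of them, with log2 fold changes from 0.16 to 1.13. Tgfb1 was higher by the fitted value in 12 of 12, but in both facilities in only 1, cluster 4. Young B was below aged B in all of them, whereas young A exceeded aged A in all but cluster 4. Smad2 was lower in 8 of 10 clusters, in both facilities in 6, with fitted values from -0.46 to 0.48. Eng was higher in 9 of 11 clusters tested, with a median log2 fold change of 0.08, which is smaller than the 0.29 over whole pools. When each pool was given the same mix of 12 clusters, the mean difference between ages on the log2(CPM + 1) scale was 0.12 for Eng against 0.34 with the clusters as found. At facility B the sign for Eng then turned to -0.06. Smad7 likewise went from 0.60 to 0.34 and Smad3 from 0.19 to 0.06, whereas Tgfb1 went from 0.51 to 0.73, Tgfbr3 went from 0.80 to 0.82 and Bmpr1a from 2.67 to 2.62.

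Differences among clusters were clearest for Eng. It was highest in the immediate-early-like cluster, with a mean of 134 CPM over the 4 pools (range 111 to 182), followed by cluster 4 (129), cluster 0 (127), cluster 5 (110) and cluster 1 (101), whose ranges overlapped from one neighbour to the next. It then dropped to 78.7 in div-like and 78.0 in rep-like cells without overlap with cluster 1, and again to 59.1 in pEr-like cells without overlap with rep-like cells. The lowest mean was 45.0 in pNeu-like cells (42.3 to 49.5), where every pool lay at 0.366 to 0.496 of its own whole-pool level. In the smaller pMast-like cluster, with at least 24 cells per pool, Eng was at 21.8, 21.1, 39.8 and 6.09 CPM in young A, young B, aged A and aged B. Primed, replicating and dividing cells thus had lower Eng than the other large clusters in these pools. By cell-cycle phase Eng had a mean of 107 CPM in G1 cells against 70.5 in S and 77.6 in G2M, and G1 was higher than S and G2M in all 4 pools.

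Tgfbr3, the other co-receptor, showed another order. Its mean was highest in pEr-like cells at 20.6 CPM (13.4 to 30.2) and lowest in pNeu-like cells at 3.04 CPM (1.69 to 3.93). The pNeu-like range did not overlap that of cluster 1, its nearest neighbour at 11.9 CPM (7.60 to 19.6), while the ranges of all other neighbours overlapped. In pNeu-like cells the level was 0.134 to 0.467 of the level of the whole pool in every pool, so both co-receptors were low in those cells. In pEr-like cells Eng was low and Tgfbr3 was not.

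Tgfb1 was higher in the primed cells summed than in the other cells of each pool, with 422 against 228 CPM in young A, 82.4 against 44.3 in young B, 335 against 175 in aged A and 258 against 133 in aged B. The primed clusters were not alike in this. In pMk-like cells, with 45 to 154 cells per pool, it had 560 CPM in young A, 136 in young B, 549 in aged A and 290 in aged B. This was 2.04 to 2.84 times the level of the whole pool and the highest of the 14 clusters in all 4 pools. In pEr-like cells it stood at 1.5 to 1.69 times the pool and in pNeu-like cells at 1.35 to 1.67 times. The small pL1-like cluster was below its pool in young A and aged A, at 0.802 and 0.817, and the rep-like and div-like clusters, which are not primed, were above the pool in all 4. Cluster 0 had the lowest mean of the 9 larger clusters, at 0.549 to 0.754 of the pool, although cluster 4 was lower in young A. The ranges of neighbouring clusters over pools overlapped all along the order.

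Among the Smads, Smad7 had its highest mean in the immediate-early-like cluster, with 47.8 CPM in young A, 8.29 in young B, 80.7 in aged A and 10.6 in aged B. This cluster was the highest of the 9 in both A pools, and in every pool it lay at 1.35 to 1.74 times the level of the whole pool. Smad3 was also highest in the immediate-early-like cluster with a mean of 16.0 CPM (14.1 to 18.0), and lowest in pNeu-like cells at 8.12 (4.83 to 12.03), and these 2 ranges did not overlap. Smad2 and Smad4 had means from 16.3 to 22.4 CPM and from 9.72 to 19.6 CPM, with overlapping ranges between their extreme clusters. Tgfbr1 was highest in pNeu-like cells at 19.9 CPM and lowest in pEr-like cells at 12.7, without overlap. Tgfbr2 ranged from 10.6 in rep-like to 15.02 in pEr-like cells with overlapping ranges.

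**Figure D3:**
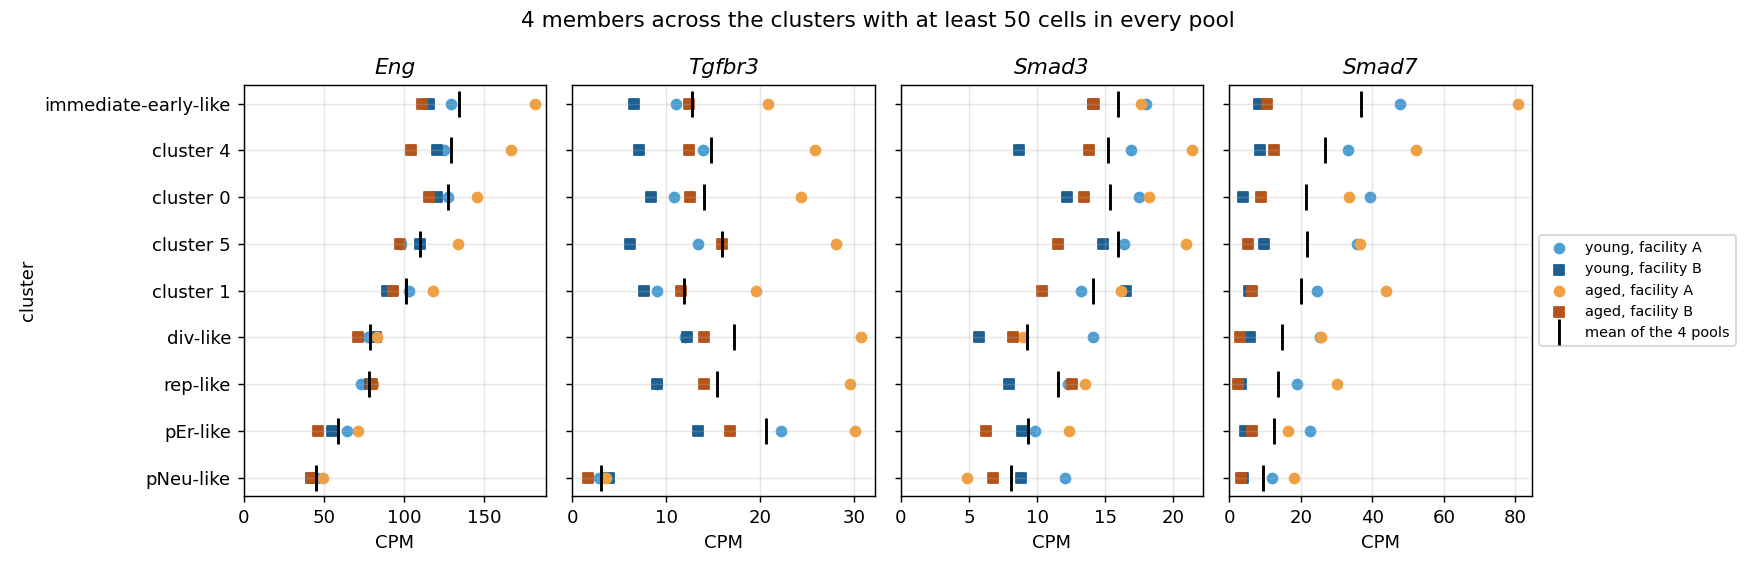
Levels of Eng, Tgfbr3, Smad3 and Smad7 (CPM) in the 9 clusters with at least 50 cells in every pool, ordered by Eng. Points are pools, black ticks the mean of the 4 pools. Eng falls from a mean of 134 (111 to 182 over pools) in immediate-early-like to 45.0 (42.3 to 49.5) in pNeu-like cells. Tgfbr3 is low in pNeu-like cells, and Smad7 splits by facility in every cluster.

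Whether age changed a member differently in primed and other cells was tested with a class by age term over the summed counts of the 2 classes. edgeR called 0 of the 10 members, with 1 at an unadjusted p below 0.05, where 1.4% of all genes were called. That member was Smad7, whose change was smaller in primed cells by 0.65 ± 0.30 on the log2 scale (an unadjusted p of 0.0437, edgeR adjusted p = 0.505), and without aged A the term was 0.15. In primed cells it had 16.2 CPM in young A, 4.96 in young B, 16.6 in aged A and 5.24 in aged B. In the other cells it had 30.2, 5.66, 51.6 and 8.05, and aged A was the pool with the large value. Bmpr1a had no UMI in primed cells of either young pool and 3.32 and 2.02 CPM in those of aged A and aged B, against 9.96 and 5.13 in the other cells of these pools. The term for Bmpr1a, the change in primed cells minus that in the others, was 3.47 ± 2.69 and was not called (edgeR adjusted p = 0.760). With no UMI in primed cells of either young pool, the term cannot be read in either direction.

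Genes with patterns most like those of the members were sought over 36 points, the 9 clusters in 4 pools, among 5494 genes with a mean of at least 20 CPM. Points of one pool share a library and its depth, so the coefficients are descriptions. Bmpr1a ran closest to Selp (Pearson's r on log2(CPM + 1) 0.90), a platelet and endothelial adhesion receptor, and to Matn4 (0.88), a matrix protein. Smad7 ran closest to Jund (0.94) and Zfp36l2 (0.94). Differences between ages and between facilities enter all these coefficients as well as differences between clusters. Bmpr1a was at most 0.964 CPM at any young point. Eng ran closest to Gabarapl1 (0.93) and Trib3 (0.91), and Tgfbr3 to Plxnc1 (0.86) and Ctnna1 (0.86). Tgfb1 ran closest to Pgp (0.96) and Gspt1 (0.95), Smad4 to Slain1 (0.92) and Znrf1 (0.91), Smad2 to Usp4 (0.90) and Nt5dc1 (0.89), and Smad3 to Zfand1 (0.85) and Cnpy4 (0.82). Tgfbr1 and Tgfbr2 were less like any gene, with 0.57 for Tgfbr1 to mt-Nd4l, 0.53 to Scd2, and 0.69 and 0.68 for Tgfbr2 to Zfp120 and Cmip. Between members, the highest coefficients were 0.79 for Smad4 with Smad7, 0.76 for Smad2 with Smad7 and 0.74 for Eng with Smad3.

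Of 80 other genes of the pathway, listed by role, 54 could be tested between ages and 3 were called, all higher in aged pools, beside the 2.03% of all genes. These were the BMP ligand Bmp4, the latent TGF-beta binding protein Ltbp4 and the BMP target Id3, an inhibitor of helix-loop-helix factors. The median log2 fold change of the 54 genes was 0.20, and 41 of them had a positive sign, beside a median of 0.01 and 6981 of 13555 over all genes tested. Id3 had 0.988 CPM in young A, 0.427 in young B, 19.7 in aged A and 3.33 in aged B (log2 fold change 3.81 ± 0.37, edgeR adjusted p = 0.0217). Both aged pools were above both young pools, with aged A highest, and the call was lost without aged A or aged B (edgeR adjusted p = 0.475 and 0.236). In immediate-early-like cells Id3 was at 39.3 CPM in aged A and 2.51 in aged B, against 2.42 and 2.49 in young A and young B, so that in that cluster aged B was like the young pools. Among the other larger clusters, aged B was above both young pools in clusters 0, 1 and 4 and in rep-like and div-like cells. In cluster 5, pEr-like and pNeu-like cells it was not.

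Of 10 ligands listed, 6 passed the low-count filter, all with a positive log2 fold change, and 1 was called. The shared sign holds for these 6 only. Among the ligands left out, Tgfb2 was lower in the aged pool at each facility and Bmp2 was higher, both at few UMIs. Bmp4 had 0.796 CPM in young A, 1.10 in young B, 20.8 in aged A and 6.28 in aged B (3.69 ± 0.53, edgeR adjusted p = 0.0458). The call was near the threshold: it was lost without plasma-like cells (edgeR adjusted p = 0.0544), without immediate-early-like cells (0.0504), in non-primed clusters only (0.0668), without aged A (0.303) and without aged B (0.236), with log2 fold changes from 2.85 to 4.25. Its aged levels were highest in clusters 4, 0 and 5 and the immediate-early-like cluster, at 22.1 to 33.2 CPM in aged A and 7.94 to 10.8 in aged B. In rep-like, div-like, pNeu-like and pEr-like cells it was at most 5.52 CPM in any pool. Inhba, an activin subunit, had 2.69, 1.59, 5.82 and 8.53 CPM (1.66 ± 0.40, edgeR adjusted p = 0.138). Of the 6 genes for latency and activation tested, 1 was called. Ltbp4 had 1.21 CPM in young A, 0.976 in young B, 7.07 in aged A and 3.82 in aged B (2.23 ± 0.31, edgeR adjusted p = 0.0434). This call was lost in non-primed clusters only (edgeR adjusted p = 0.0580), without immediate-early-like cells (0.0646) and without any 1 pool (0.118 to 0.477), with log2 fold changes from 1.92 to 2.47. Nrros, which anchors latent TGF-beta on the cell surface, had 100.1, 109, 104 and 84.7 CPM, and Furin, a protease that cleaves the precursor, 18.6, 14.2, 30.6 and 13.7, and neither was called.

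In the remaining roles none was called except Id3, by edgeR adjusted over all genes. Over all genes, 16% had an unadjusted p below 0.05 in edgeR and DESeq2 called 2.78%. Of 5 other receptors tested, with 0 at an unadjusted p below 0.05 and 0 called by DESeq2, Bmpr2 had 11.6, 10.3, 20.9 and 8.53 CPM and Acvr1b 8.45, 5, 8.42 and 4.75 in young A, young B, aged A and aged B. Among 3 antagonists of ligands (0 at an unadjusted p below 0.05, 0 by DESeq2) Fstl1 had 14.5, 6.83, 24.0 and 8.44 CPM and Twsg1 15.4, 7.26, 17.9 and 7.33. Among 6 receptor partners (2 and 0) Fkbp1a, which holds type I receptors inactive, had 268, 243, 285 and 247 CPM and Strap 143, 71.7, 119 and 86.3. Facility rather than age ordered several of these genes. Of 3 other Smads (2 and 0), the BMP effector Smad1 had 23.4, 16.5, 39.6 and 26.2 CPM, with both aged pools above both young ones (0.66 ± 0.16, edgeR adjusted p = 0.134), and Smad5 19.9, 17.9, 24.9 and 16.5. The 8 regulators of Smad turnover had 0 at an unadjusted p below 0.05 and 0 by DESeq2, with Usp9x at 34.2, 33.0, 50.8 and 32.8 CPM and Usp15 at 39.4, 25.9, 40.3 and 28.6. The 7 nuclear partners (1 and 1) included the corepressor Tgif1 at 55.2, 64.9, 60.7 and 42.3 CPM and the coactivator Crebbp at 40.4, 41.3, 42.5 and 37.2.

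Among 10 target genes tested, 1 was called (Id3), 6 had an unadjusted p below 0.05 and DESeq2 called 4. Over all genes these shares were 2.03%, 16% and 2.78%. The levels of 4 targets did not overlap between ages, 3 of them higher in aged pools, beside 31.8% and 18.1% of all genes. Junb and Klf10, described next, were taken for their high mean CPM and do not stand for the other targets. The transcription factor Junb, also an immediate-early gene and in that marker list, had 126 CPM in young A, 55.7 in young B, 450 in aged A and 123 in aged B (1.44 ± 0.22, edgeR adjusted p = 0.0522). Junb was higher in the aged pool at each facility, and DESeq2 called it (DESeq2 adjusted p = 1.02e-05) where edgeR did not. Aged A was far above the others, and aged B did not exceed young A. Klf10 had 52.2, 41.9, 120 and 25.5 CPM, with the aged pools on both sides of the young ones (0.20 ± 0.44, edgeR adjusted p = 0.883). The immediate-early sum was 4098 CPM in aged A, and its part in these values was not tested. Without immediate-early-like cells Id3 was the only 1 of these pathway genes called, and Bmpr1a was still called (log2 fold change 5.04, edgeR adjusted p = 0.0170).

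**Figure D4:**
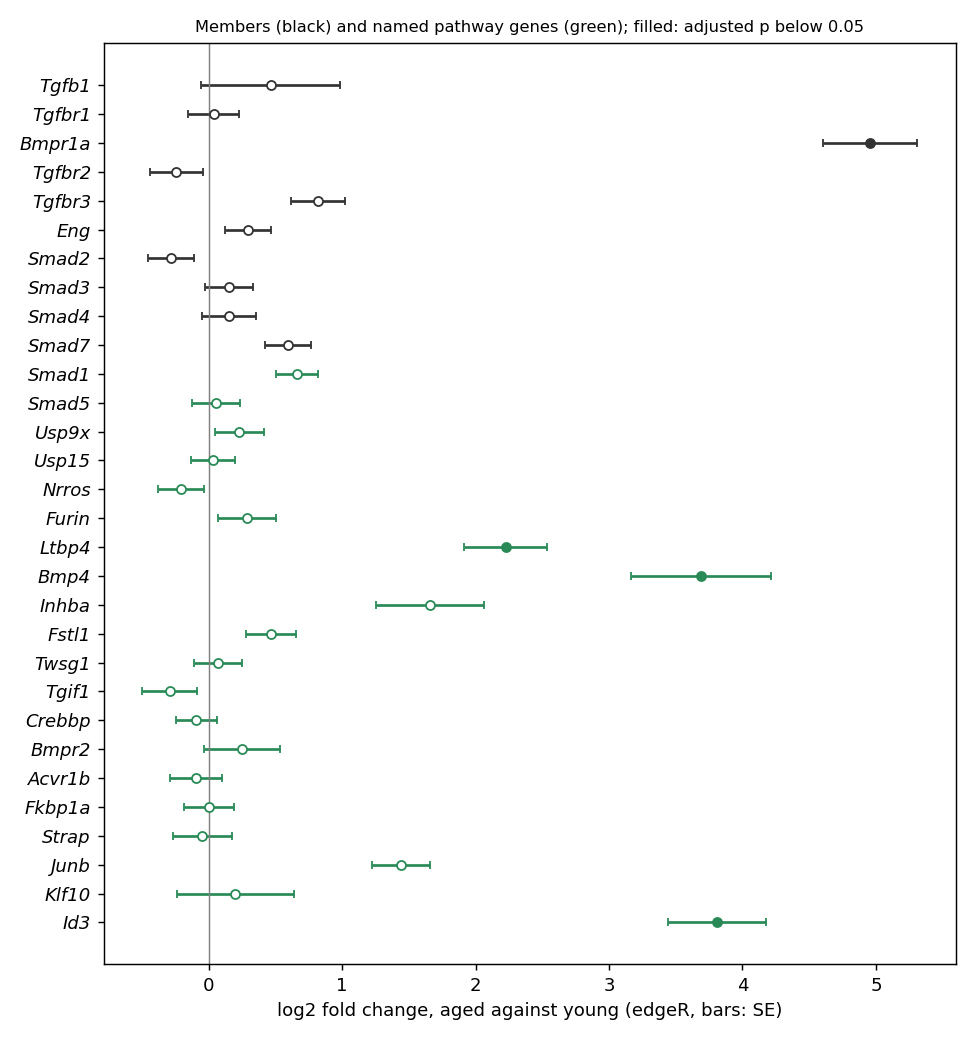
Log2 fold change, aged over young, for the 10 members (black) and 20 other pathway genes named by the rule (green), with SE bars from edgeR and filled points for an adjusted p below 0.05. Bmpr1a (4.95), Id3 (3.81), Bmp4 (3.69) and Ltbp4 (2.23) are the filled points, and all other points lie open between -0.29 and 1.66.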

How the data were processed

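The processed files were UMI counts per gene and cell, which the authors had made with Cell Ranger 2.2.0 on the mm10 (GRCm38.p4) mouse genome per the labels and deposited as unnormalised matrices. In each pool, cells whose log UMI total lay within 2 SD of the pool's mean were kept. Clusters were rebuilt with Seurat 5.3.0 (2000 variable genes without the members and the pathway list, canonical correlation integration over 15 dimensions, cyclone phases of scran 1.30.0 regressed out, resolution 0.5), so they need not match the authors' names. No doublet caller was run.

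Counts were summed per pool, or per pool and cluster, and tested in edgeR 4.0.16 (R 4.3.3; glmQLFit and glmQLFTest, TMM, filterByExpr) with the facility letter as a block and Benjamini-Hochberg adjustment over all genes tested, at a threshold of 0.05. SE was taken from the quasi-likelihood F. DESeq2 1.42.0, other size factors, no low-count filter, no block, all barcodes, each pool left out, other resolutions and sets of clusters were tried as alternatives. Pools are replicates of separate mice, and residual spread rests on 1 degree of freedom moderated over genes. That the letter marks a shared facility comes from the labels and the study's methods; deviations of A from B in young and aged pools correlated over 13555 genes (r = 0.58). CPM is counts per 1000000 UMIs, and 1 was added before log2. Intervals cover counting error at 95%.

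The members and the list of 80 pathway genes were chosen with earlier results of these data known, so no count over them is independent evidence. Named were all 10 members; of the pathway list, each gene called over whole pools and, per role, the 2 with the highest mean CPM; and per member the 2 genes with the highest Pearson's r over clusters and pools. Ltbp4 is listed under 2 gene identifiers, and the first was used. Gene positions are from GENCODE M21 and promoters from RefSeq. Marker lists other than those given in the text were used only to name clusters: the summed CPM in young A, young B, aged A and aged B was 1054, 1072, 1768 and 1566 for 10 stem cell genes.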

Additional observations from a re-analysis of the deposited data

Results flagged for a closer look

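The change with age differed between primed and other clusters for 4 genes of the pathway list and for none of the 10 members, by the class by age term of edgeR with adjustment over all genes. That term called 179 of all 12808 genes tested, or 1.4%. Id1 and Id2, which inhibit helix-loop-helix factors and are BMP targets, were singled out here after their values were seen. The fitted change of Id1 in primed cells minus that in the others was -3.00 (log2; edgeR adjusted p = 0.00505). In the other cells Id1 had 4.999 CPM in young A, 2.98 in young B, 57.9 in aged A and 3.12 in aged B. Only aged A was high, and without it the term was -0.48 (edgeR adjusted p = 0.758). In primed cells Id1 had 16.8, 11.8, 14.96 and 8.07 CPM. Id1 is also among the 10 leading genes of the immediate-early-like cluster, which counts among the other cells.

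For Id2 the term was -2.10 (edgeR adjusted p = 0.000394), with -1.68 to -2.87 when any 1 pool was left out. In the other cells it had 15.1, 7.26, 61.1 and 18.9 CPM in young A, young B, aged A and aged B, the aged pool being higher at each facility. In primed cells it had 52.9, 61.4, 77.7 and 19.0, where aged A was highest and aged B lowest. The pL1-like cluster, with 35, 32, 32 and 9 cells, had the highest level of the 14 clusters in every pool, at 929, 731, 662 and 229 CPM, and its part in the term was not tested.

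For Junb the term was -1.06 (edgeR adjusted p = 0.00424), with -0.71 without aged A. For Klf10 it was -0.88 (edgeR adjusted p = 0.0362), and its adjusted p was 0.278 without young B.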

How the results depend on the processing

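Bmpr1a was called under DESeq2, RLE size factors, no low-count filter, all barcodes, non-primed clusters only and without either young pool, and, in settings added after the data were seen, without plasma-like and without immediate-early-like cells. Without the replicate block 0 members and 0 pathway genes were called by edgeR (2 and 9 at an unadjusted p below 0.05), and 0 members within clusters (5 of 88 tests). Over whole pools that setting called 0 of all 13555 genes tested. Fits without an aged pool rest on 1 aged pool and no block. Fits without a young pool have the same form but kept the Bmpr1a call, and the reason was not tested. Without aged A or without aged B, no member or pathway gene was called over whole pools, and almost no gene of any kind was called there either. Leaving out 1 pool within clusters was a setting added later. Pathway genes called were 7 of 73 with DESeq2 (528 of 19025 over all genes) and 10 of 73 with no low-count filter (774 of 19025). With all barcodes they were 5 of 55 (349 of 13716 over all genes). In non-primed clusters only, 2 of 52 were called, Id2 and Id3 (201 of 13369). Without plasma-like cells 2 of 54 were called, Id3 and Ltbp4 (240 of 13534), and without immediate-early-like cells 1 of 53 (203 of 13185). The counts over all genes thus moved with the setting too. At resolution 0.8, 1 of 110 member tests within clusters was called, Bmpr1a in cluster 0 of that clustering, where 180 of 10398 genes were called. At resolution 0.3, 4 of 71 were called, all Bmpr1a. In those clusters 92 to 138 genes were called among 9532 to 12087 tested. Young levels of Bmpr1a were at most 0.829 CPM in all these clusters, so its shared direction adds no support. With 1 pool left out, log2 fold changes ran from -0.64 to 1.54 for Tgfb1, -0.18 to 0.21 for Tgfbr1, -0.87 to 0.17 for Smad2, -0.32 to 0.57 for Smad4 and -0.91 to 2.01 for Smad7; DESeq2 gave -0.0016 for Tgfbr1. The cause was not tested, but a fit on 3 pools drops the block. Of 120 fitted log2 fold changes of members under other settings, 108 kept direction and call, 3 (Bmpr1a) lost the call and 9 turned sign.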
